A study of Homo sapiens with 12 samples.

Results

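The genes described here form the pericellular proteolysis system of plasminogen activators, matrix metalloproteinases and their tissue inhibitors. They were PLAU, PLAT, PLAUR, MMP1, MMP2, MMP14, TIMP1, TIMP2 and TIMP3, taken by gene symbol in the array annotation. These 9 genes had 22 probe sets, of 41091 probe sets for 19775 genes that carried exactly 1 gene symbol. RNA came from MDA-MB-231 cells, an established line of human triple-negative breast cancer, grown at low confluence in serum-containing medium. Cells received control siRNA, YAP/TAZ siRNA mix 1 or YAP/TAZ siRNA mix 2 at 33 nM on day 2, had fresh medium on day 3 and were harvested on day 4. Each group had 4 biological replicates, A to D, with 1 Affymetrix array each, and all 12 arrays came from this 1 line. YAP and TAZ (gene WWTR1) are coactivators of the TEAD transcription factors, restrained by the Hippo kinases, and the study asked what their joint loss does to gene expression.

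Urokinase (PLAU) and tissue plasminogen activator (PLAT) are secreted serine proteases that cut plasminogen into plasmin, which digests fibrin and other matrix proteins and can start the activation of latent metalloproteinases. The urokinase receptor, PLAUR, is anchored in the membrane and holds urokinase at the cell surface. MMP1 cleaves fibrillar collagen, MMP2 cleaves gelatin and basement membrane collagen, and MMP14 is a membrane-bound collagenase that activates the MMP2 proenzyme with the help of TIMP2. TIMP1, TIMP2 and TIMP3 block active metalloproteinases, and TIMP3, which stays bound to the matrix, also inhibits ADAM17. In breast cancer cells the system is known for its part in invasion.

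Values are log2 expression as deposited. A gene was tested when a probe set of it had a mean above 5.46 log2, the 40th percentile, and the brightest of its probe sets represented it. This left 13225 genes, and 8 of the 9 genes described here. Each of these 8 lay above that value in all 3 groups, so none entered through 1 high group. MMP2, with 3 probe sets between 2.9 and 5.49 log2 on single arrays, did not enter. Differences carry the standard error (SE) of the limma fit and a p adjusted over all genes, with a threshold of 0.05.

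The knockdown was visible on every array of mix 1 and mix 2, where YAP1 and WWTR1 lay below all control arrays. Mean YAP1 fell by 3.01 with mix 1 and 3.07 with mix 2 on the log2 scale, and WWTR1 differed from control by -2.33 and -2.45. Array medians lay between 5.69 and 5.78 log2, and arrays of 1 group correlated across genes at 0.993 to 0.998. The 3′ minus 5′ difference of the array's GAPDH controls was 0.33 to 0.51 log2 and that of its actin controls 1.36 to 2.24, with ranges that overlapped between all 3 groups. For actin they were 1.38 to 1.99 in control, 1.61 to 2.24 with mix 1 and 1.36 to 1.83 with mix 2. At every letter the actin difference was higher with mix 1 than in control. Its bearing on differences between probe sets of a gene was not tested. Of 7 markers of the line, 6 passed the filter, led by vimentin (VIM, 14.29 log2 in control), while SPARC (4.33) was near background. Of 10 epithelial and luminal markers, 7 passed the filter, led by KRT19 (11.63 in control), with KRT8 at 10.63 and EPCAM at 9.57. The others, CDH1 (3.98), FOXA1 (4.62) and the progesterone receptor gene PGR (3.56), were near background.

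Cells given YAP/TAZ siRNA had less urokinase mRNA and more mRNA for tissue plasminogen activator, MMP1, MMP14 and all 3 TIMPs, under either mix. With mix 1, 7 of the 8 tested genes rose and 1, PLAU, fell. Over all genes tested, 34.8% rose and 32.3% fell. With mix 2, 6 rose, PLAU fell and PLAUR did not pass, where 36.7% of all genes rose and 31.9% fell. Changes of at least 2-fold were seen for 4 of the 8 genes with mix 1 and 6 of 8 with mix 2, against 16.4% and 18.4% of all genes. The median difference of the 8 genes was 1.18 log2 with mix 1 and 1.19 with mix 2, and that of all genes 0 and 0.03. The comparisons of mix 1 and mix 2 share their 4 control arrays. In bulk RNA, a smaller share of cells with a transcript and less of it per cell cannot be told apart.

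**Figure D1:**
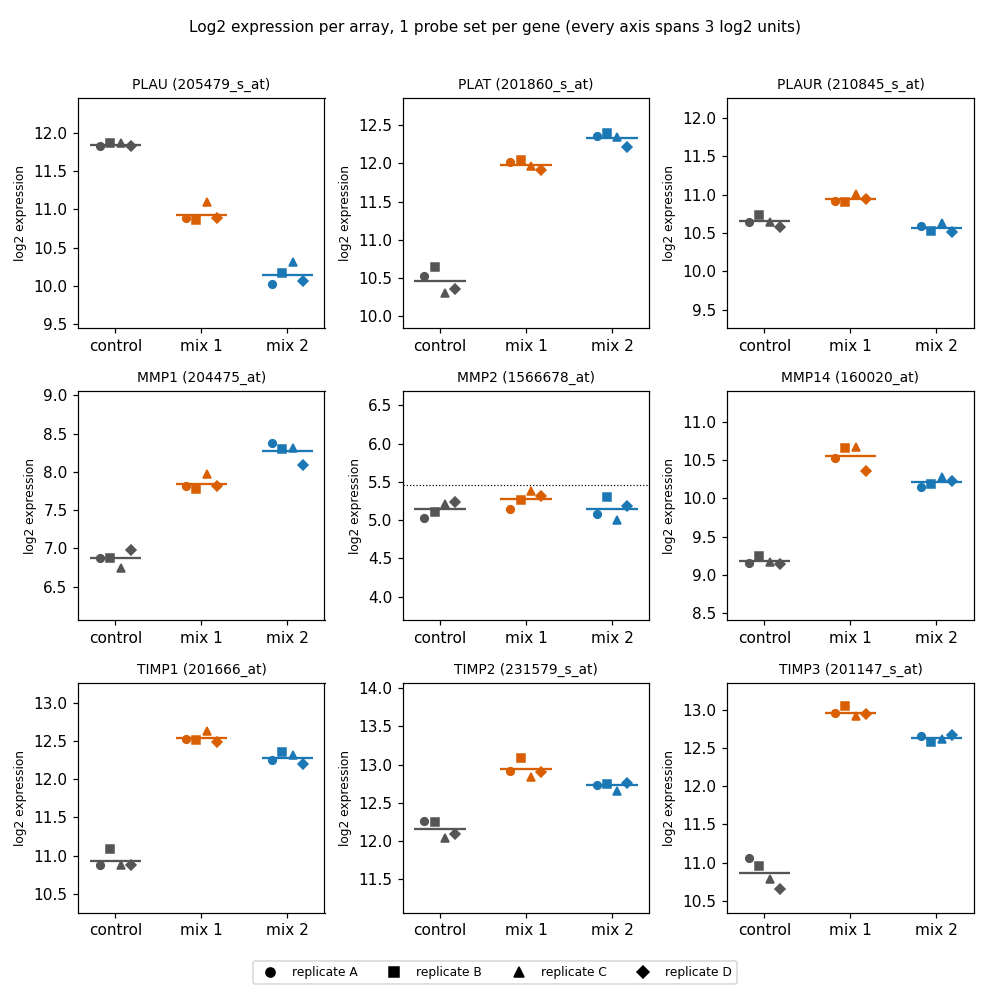
Log2 expression on each of the 12 arrays (y axis, 3 log2 units high in every panel) for the 9 genes in control, mix 1 and mix 2; points are arrays, marked by replicate letter, horizontal lines are group means, and the dotted line in the MMP2 panel is the filter value of 5.46. PLAU steps down from control to mix 1 to mix 2, PLAT and MMP1 step up in that order, MMP14 and the 3 TIMPs are higher with mix 1 than with mix 2, and MMP2, drawn at 1566678_at, lies under the filter value on every array.

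Promoter sequences are shown for urokinase and its receptor, a ligand and receptor pair in which the ligand fell with both mixes, and for TIMP3, which of the 8 genes rose most under mix 1 at the brightest probe sets. RefSeq windows (GRCh38.p14, 250 bases before to 50 after a start) matched 5 of the 9 genes with 6 starts, as PLAU has 2 starts; PLAT, MMP1, MMP2 and TIMP2 had no entry. The motif of AP-1, a factor known to drive several metalloproteinase and urokinase system genes, was searched as TGANTCA and that of the TEAD factors as GGAATG, on both strands. Capitals mark a match. For PLAU the downstream start is shown. The 250 bases before each start read 5′ to 3′ as follows.
PLAU, chr10:73910882-73911131, plus strand: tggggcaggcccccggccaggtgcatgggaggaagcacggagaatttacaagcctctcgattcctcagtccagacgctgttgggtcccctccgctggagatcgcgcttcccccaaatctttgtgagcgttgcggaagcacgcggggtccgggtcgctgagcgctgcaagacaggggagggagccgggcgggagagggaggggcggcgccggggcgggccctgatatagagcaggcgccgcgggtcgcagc
PLAUR, chr19:43670170-43670419, minus strand: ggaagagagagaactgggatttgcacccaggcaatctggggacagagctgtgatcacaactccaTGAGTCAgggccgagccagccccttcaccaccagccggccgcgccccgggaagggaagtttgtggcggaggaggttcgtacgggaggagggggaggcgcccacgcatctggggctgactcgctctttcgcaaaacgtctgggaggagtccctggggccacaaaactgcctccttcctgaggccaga
TIMP3, chr22:32801455-32801704, plus strand: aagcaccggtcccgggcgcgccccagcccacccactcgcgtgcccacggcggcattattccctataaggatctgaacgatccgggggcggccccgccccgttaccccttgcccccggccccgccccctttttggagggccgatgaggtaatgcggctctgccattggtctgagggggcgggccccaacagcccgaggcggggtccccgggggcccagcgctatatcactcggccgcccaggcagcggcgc

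PLAUR held an AP-1 match, TGAGTCA, from base -186 to -180 before its start. Neither motif was found in the windows of PLAU (both starts), MMP14, TIMP1 or TIMP3. Of 35116 promoter windows, 7.71% held the AP-1 letters and 14.0% the TEAD letters. These windows are short, so the matches describe only the letters close to each start.

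Among the plasminogen activators, PLAU fell and PLAT rose. PLAU (probe set 205479_s_at) read 11.82, 11.87, 11.86 and 11.83 log2 on control arrays A to D, 10.88, 10.86, 11.10 and 10.89 with mix 1 and 10.03, 10.17, 10.31 and 10.06 with mix 2. The 3 groups did not overlap, and the order was control, mix 1, mix 2 from high to low. The mean went from 11.84 ± 0.02 (SD, n = 4) to 10.93 ± 0.11 and 10.14 ± 0.13, which left 53.1% of the control level with mix 1 and 30.7% with mix 2. The log2 differences were -0.91 (SE 0.07, adjusted p = 3.07e-08) and -1.70 (SE 0.07, adjusted p = 2.82e-11). Mix 2 lay below mix 1 by a log2 difference of -0.79 (SE 0.07, adjusted p = 3.49e-07). The other PLAU probe set, 211668_s_at, moved alike, by -1.07 with mix 1 and -1.86 with mix 2. Urokinase mRNA thus fell at both probe sets, further with mix 2.

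PLAT, whose product acts mainly on fibrin-bound plasminogen, read 10.53, 10.64, 10.30 and 10.36 log2 in control, 12.02, 12.04, 11.96 and 11.91 with mix 1 and 12.36, 12.40, 12.35 and 12.21 with mix 2. No array of 1 group reached the range of another, and mix 2 was highest. PLAT was 2.88-fold higher than control with mix 1 (log2 difference 1.53, SE 0.08, adjusted p = 1.99e-10) and 3.66-fold higher with mix 2 (1.87, SE 0.08, adjusted p = 1.81e-11). The mixes differed by 0.35 log2 (SE 0.08, adjusted p = 0.00129). PLAT has 1 probe set, 201860_s_at, on this array.

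The urokinase receptor moved little. PLAUR (210845_s_at) read 10.65, 10.74, 10.65 and 10.58 log2 in control, 10.92, 10.90, 11.01 and 10.94 with mix 1 and 10.59, 10.53, 10.63 and 10.51 with mix 2. Mix 1 lay above both other groups on every array, while control and mix 2 overlapped. It was 1.22-fold higher with mix 1 (log2 difference 0.29, SE 0.05, adjusted p = 0.000277). With mix 2 the difference was -0.09 (95% interval -0.21 to 0.03, adjusted p = 0.161), and mix 2 lay below mix 1 (-0.38, SE 0.05, adjusted p = 3.82e-05). Under mix 1 the receptor thus rose where its ligand PLAU fell.

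The 3 PLAUR probe sets did not respond equally. Another, 211924_s_at, showed 0.24 with mix 1 (adjusted p = 0.0269 in the fit of all 41091 probe sets) and -0.16 with mix 2 (adjusted p = 0.131). That rise did not pass without control replicate A (0.22, adjusted p = 0.0732) or C (0.22, 0.0715), without mix 1 replicate A (0.22, 0.0731) or B (0.21, 0.0799), or with centred arrays (0.21, 0.0701). The dimmest, 214866_at, stayed within 8.59 to 8.82 log2 on all 12 arrays, with differences of 0.05 for either mix (95% interval -0.10 to 0.21, adjusted p = 0.606 and 0.605). Without shared probe sets, it stands for PLAUR, and its call with mix 1 is lost (adjusted p = 0.492). Relative to the mean of the other PLAUR probe sets, 214866_at was 0.39 log2 higher with mix 2 than with mix 1 (SE 0.07, adjusted p = 0.000538), so its response differed from theirs.

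The metalloproteinases MMP1 and MMP14 rose and MMP2 was not measurable. MMP1 (204475_at), the interstitial collagenase, read 6.88, 6.87, 6.74 and 6.98 log2 in control, 7.81, 7.78, 7.97 and 7.82 with mix 1 and 8.38, 8.30, 8.31 and 8.09 with mix 2. Groups did not overlap and rose from control to mix 1 to mix 2. MMP1 was 1.97-fold higher with mix 1 (log2 difference 0.98, SE 0.07, adjusted p = 2.09e-08) and 2.64-fold higher with mix 2 (1.40, SE 0.07, adjusted p = 3.27e-10). The mixes differed by 0.42 log2 (SE 0.07, adjusted p = 0.000206).

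MMP14 (160020_at), the membrane-type enzyme, read 9.16, 9.24, 9.17 and 9.14 log2 in control, 10.52, 10.66, 10.67 and 10.36 with mix 1 and 10.15, 10.19, 10.28 and 10.23 with mix 2. Every knockdown array exceeded every control array, and mix 1 lay above mix 2 without overlap. The rise was 2.59-fold with mix 1 (log2 difference 1.37, SE 0.07, adjusted p = 2.33e-10) and 2.05-fold with mix 2 (1.03, SE 0.07, adjusted p = 4.6e-09). Mix 2 minus mix 1 was -0.34 (SE 0.07, adjusted p = 0.000758), the opposite sign to MMP1. All 4 MMP14 probe sets rose under both mixes, by 1.22 to 1.64 log2 with mix 1 and 0.78 to 1.24 with mix 2. For 202828_s_at the difference between the mixes (-0.29, adjusted p = 0.0336) did not pass without mix 1 replicate B (-0.28, adjusted p = 0.0783) or C (-0.23, 0.104), without mix 2 replicate B (-0.30, 0.0562) or D (-0.22, 0.102), or when the fit held just the 2 mixes (0.0533).

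MMP2, the gelatinase that MMP14 activates, gave no signal clear of background. Its brightest probe set, 1566678_at, read 5.03, 5.10, 5.21 and 5.24 log2 in control, 5.15, 5.26, 5.38 and 5.31 with mix 1 and 5.08, 5.30, 5.0 and 5.19 with mix 2. The groups overlapped. In the fit of all probe sets, the 3 MMP2 probe sets differed from control by -0.24 to 0.13 log2 with mix 1 and 0.00 to 0.14 with mix 2, and none passed (adjusted p = 0.19 to 0.987). Without mix 1 replicate D, 201069_at passed with mix 1 against control (-0.36, adjusted p = 0.0458) and between the mixes (0.38, adjusted p = 0.045). At this level a change in MMP2 was not detectable, which does not show that the gene stayed the same.

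All 3 inhibitors rose, and at the brightest probe sets TIMP3 rose most. With mix 2 its other probe sets rose by 0.37 to 1.30, less than TIMP1 (1.35). TIMP1 (201666_at) read 10.88, 11.09, 10.88 and 10.88 log2 in control, 12.52, 12.51, 12.63 and 12.49 with mix 1 and 12.25, 12.36, 12.32 and 12.20 with mix 2. The groups were separate, with mix 1 highest. TIMP1 was 3.04-fold higher with mix 1 (log2 difference 1.61, SE 0.06, adjusted p = 2.1e-11) and 2.55-fold higher with mix 2 (1.35, SE 0.06, adjusted p = 1.06e-10). Mix 2 minus mix 1 was -0.26 (SE 0.06, adjusted p = 0.00374).

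TIMP2 (231579_s_at), the inhibitor that also bridges MMP14 and the MMP2 proenzyme, read 12.27, 12.25, 12.04 and 12.09 log2 in control, 12.92, 13.09, 12.84 and 12.90 with mix 1 and 12.74, 12.75, 12.66 and 12.76 with mix 2. Both knockdown groups lay above control on every array. The rise was 1.71-fold with mix 1 (log2 difference 0.78, SE 0.07, adjusted p = 1.39e-07) and 1.48-fold with mix 2 (0.57, SE 0.07, adjusted p = 3.87e-06). Mix 2 lay slightly below mix 1 (-0.21, SE 0.07, adjusted p = 0.0198; 0.0514 in the fit of all probe sets). That difference did not pass without mix 1 replicate B (-0.16, adjusted p = 0.0686) or mix 2 replicate C (-0.19, 0.058), with centred arrays (-0.20, 0.0515), with the mean of its probe sets (-0.07, 0.4) or without shared probe sets (-0.16, 0.0674). Probe set 224560_at rose alike (0.82 and 0.66). The dimmer 203167_at rose less, by 0.23 with mix 1 (adjusted p = 0.0388) and 0.41 with mix 2 (adjusted p = 0.000924). Its rise with mix 1 did not pass without control replicate A, C or D, mix 1 replicate B or C, or with centred arrays (0.19 to 0.24 log2, adjusted p = 0.0594 to 0.126). Relative to the mean of the other TIMP2 probe sets, 203167_at fell by 0.57 with mix 1 (SE 0.09, adjusted p = 0.000151) and lay 0.36 higher with mix 2 than with mix 1 (SE 0.09, adjusted p = 0.00491).

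TIMP3 (201147_s_at) read 11.06, 10.95, 10.78 and 10.65 log2 in control, 12.95, 13.04, 12.91 and 12.94 with mix 1 and 12.66, 12.57, 12.61 and 12.67 with mix 2. The groups did not overlap, and mix 1 was highest. The level was 4.29-fold above control with mix 1 (log2 difference 2.10, SE 0.08, adjusted p = 1.11e-11) and 3.40-fold with mix 2 (1.77, SE 0.08, adjusted p = 4.76e-11). Mix 2 minus mix 1 was -0.33 (SE 0.08, adjusted p = 0.00228) at this probe set.

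The size of the TIMP3 response to mix 2 depended on the probe set read. At 201150_s_at the arrays read 11.57, 11.44, 11.27 and 11.49 log2 in control, 13.02, 13.13, 12.90 and 12.84 with mix 1 and 11.87, 11.86, 11.76 and 11.75 with mix 2. There mix 1 was 1.53 above control and mix 2 only 0.37 (adjusted p = 0.00184 over all probe sets), and the mixes differed by -1.16 (adjusted p = 3.98e-08). The remaining probe sets, 201148_s_at and 201149_s_at, lay between, at 1.30 and 1.25 with mix 2 and 1.90 and 1.98 with mix 1. Relative to the mean of the other TIMP3 probe sets, 201150_s_at fell by 1.07 log2 with mix 2 (SE 0.09, adjusted p = 4.6e-07) and by 0.47 with mix 1 (SE 0.09, adjusted p = 0.00067), and the mixes differed by -0.61 (SE 0.09, adjusted p = 8.55e-05). The files do not say which transcript ends these probe sets read.

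**Figure D2:**
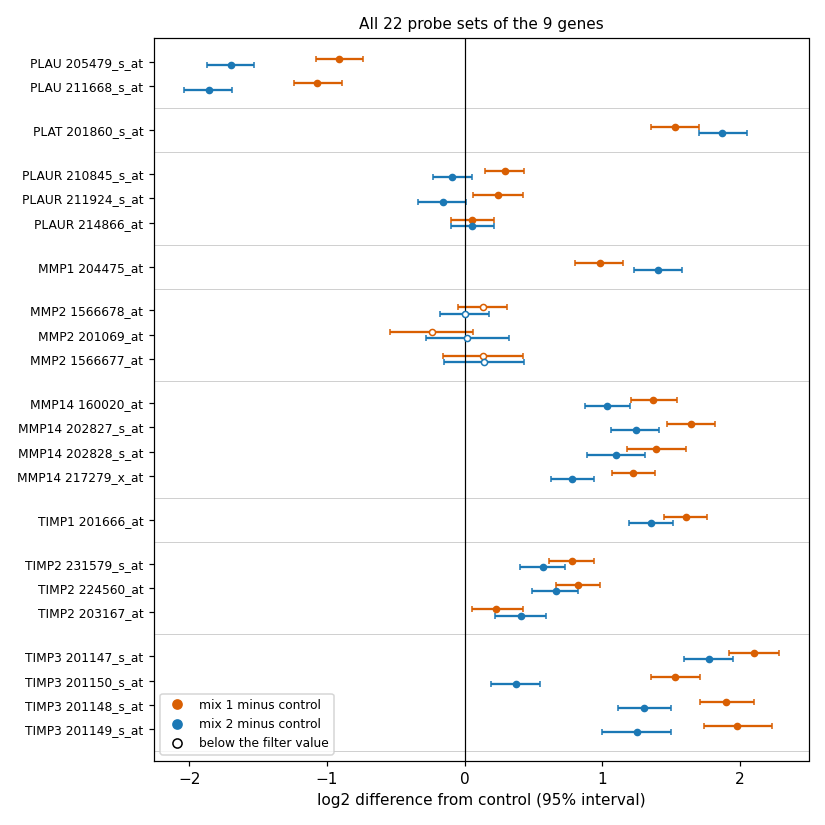
Log2 difference from control (x axis, with 95% intervals of the fit over all probe sets) for the 22 probe sets of the 9 genes, mix 1 and mix 2; open points mark the 3 MMP2 probe sets, below the filter value. PLAU lies left of 0 at both probe sets and MMP14 right of 0 at 4 of 4, whereas the mix 2 values of TIMP3 run from 0.37 to 1.77.

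Over the 22 probe sets, 16 were higher and 2 lower with mix 1, and 14 higher and 2 lower with mix 2. Of all 41091 probe sets, 43.2% passed with mix 1 and 44.3% with mix 2. Between the mixes 15 of the 22 passed, 2 of them higher with mix 2, where 32.1% of all probe sets passed. These shares are of probe sets without a filter, whereas 19 of the 22 lay above the filter value. Past the filter, 34.8% of genes rose and 32.3% fell with mix 1, and 36.7% rose and 31.9% fell with mix 2. Unequal change within a gene was common on these arrays: among probe sets set against the mean of their gene's others, 41.9% passed under either mix against control and 36.4% between the mixes. For the genes described here, 8, 5 and 6 of 15 passed in mix 1 against control, mix 2 against control and mix 2 against mix 1. The unequal change of PLAU did not pass (adjusted p = 0.0746 to 0.946).

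Between the mixes, all 8 tested genes differed at their brightest probe sets, each by less than 2-fold there. TIMP3 201150_s_at, given above, was 2.24-fold lower with mix 2. PLAT and MMP1 were higher with mix 2, and PLAU, PLAUR, MMP14, TIMP1, TIMP2 and TIMP3 were lower. Of all genes, 28.7% were higher and 25% lower with mix 2, and 6.25% differed at least 2-fold. The median difference of the 8 genes was -0.29 log2, against 0.02 for all genes. At the brightest probe sets PLAU had the largest difference of the 8 (-0.79), smaller than that of TIMP3 201150_s_at (-1.16). For YAP1 and WWTR1 the mixes differed by -0.06 (adjusted p = 0.73) and -0.12 (adjusted p = 0.344), which did not pass. CCN2, a well-known YAP/TAZ target, fell by 4.04 with mix 1 and fell by 2.28 with mix 2, and the mixes differed by 1.76 (adjusted p = 6.81e-10).

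**Figure D3:**
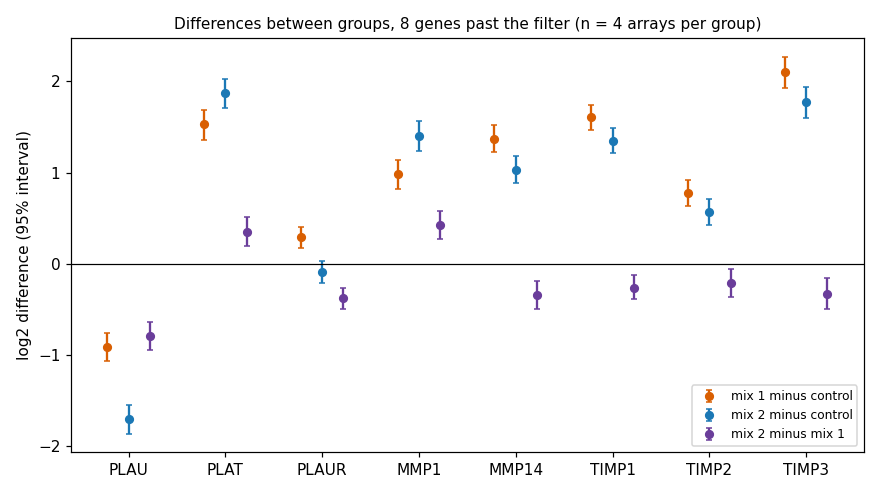
Log2 differences between groups (y axis, points with 95% intervals of the limma fit, n = 4 arrays per group) for the 8 genes past the filter, in mix 1 minus control, mix 2 minus control and mix 2 minus mix 1. PLAU is below 0 in all 3 comparisons, the interval of PLAUR with mix 2 spans 0 (-0.21 to 0.03), and TIMP3 with mix 1 is the highest point at 2.10.

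The wider system was read with a list of 65 other genes, of which 43 passed the filter, 18 lay below it and 4 were not analysed here. With mix 1, 26 of the 43 rose and 4 fell (median 0.32 log2), and with mix 2, 25 rose and 4 fell (median 0.33). Between the mixes 13 were higher and 9 lower with mix 2 (median 0.01). The share that rose was above that of all genes in both comparisons with control, as given above, and this is a description of a list chosen with earlier results known.

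Among plasminogen and its cell-surface receptors, 5 of 7 genes were tested; PLG itself, the gene of plasminogen, lay below the filter. PLGRKT, a receptor that binds plasminogen at the cell surface, fell from 9.82 ± 0.05 log2 (SD, n = 4) to 8.30 ± 0.08 with mix 1 and 9.23 ± 0.09 with mix 2. Its differences were -1.52 (adjusted p = 1.92e-11) and -0.59 (adjusted p = 4.87e-07), and mix 2 lay 0.93 above mix 1. S100A10, which binds plasminogen together with annexin A2, rose by 0.46 and 0.47, although a dimmer probe set of it fell by 0.41 with mix 2. With the mean of its probe sets the rise with mix 2 did not pass (0.03, adjusted p = 0.655). ANXA2 and ENO1 did not pass with either mix (adjusted p = 0.142 to 0.97).

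Of 7 listed inhibitors of the plasminogen system, mostly serpins, 2 were tested and both rose, where 34.8% of all genes rose with mix 1 and 36.7% with mix 2. SERPINI1, neuroserpin, an inhibitor of tissue plasminogen activator, went from 7.24 ± 0.13 to 9.68 ± 0.06 with mix 1 and 9.86 ± 0.05 with mix 2, a rise of 2.44 and 2.62 log2. SERPINE2, which inhibits urokinase, thrombin and plasmin, rose by 0.32 and 0.89. The target PLAT and its inhibitor SERPINI1 were thus both higher with either mix.

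Of 20 other metalloproteinases, 9 were tested, 3 rose with mix 1, 2 rose with mix 2 and none fell. These counts are no higher a share than the 34.8% and 36.7% of all genes that rose. MMP16, another membrane-type enzyme that can activate the MMP2 proenzyme, was at 6.06, 5.75, 5.78 and 6.03 log2 in control, 9.50, 9.56, 9.34 and 9.59 with mix 1 and 7.21, 6.98, 7.15 and 7.21 with mix 2. Its rise was 3.59 log2 with mix 1 and 1.23 with mix 2, and the mixes differed by -2.36 (SE 0.09, adjusted p = 3.56e-11). Of its dimmer probe sets, 207012_at rose by 2.02 and 1.33, and 3 others differed from control by 0.11 to 0.60. MMP11 rose by 0.72 and 0.70, a call that was lost without shared probe sets (0.07 and 0.14, adjusted p = 0.459 and 0.109). MMP9, the other gelatinase, did not pass (-0.21, adjusted p = 0.178, and -0.14, adjusted p = 0.359).

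Of 5 other regulators of metalloproteinases, 4 rose with mix 1, 4 rose with mix 2 and none fell at the brightest probe sets. For all genes the shares were 34.8% and 36.7% that rose and 32.3% and 31.9% that fell. TIMP4, RECK and BSG passed with both mixes, FURIN only with mix 1 (mix 2: 0.19, adjusted p = 0.0815) and TFPI2 only with mix 2 (mix 1: 0.11, adjusted p = 0.127). TIMP4, the remaining member of the inhibitor family, rose from 6.40 ± 0.22 to 9.48 ± 0.06 with mix 1 and 9.02 ± 0.21 with mix 2, by 3.08 and 2.62 log2. With it, 4 of 4 TIMP genes were higher under both mixes. RECK, a membrane-anchored inhibitor, rose by 0.40 and 1.07 at its brightest probe set, but others fell (1558115_at by 1.59 with mix 1), and with the mean of its probe sets it fell with mix 1 (-0.72, adjusted p = 1.84e-06) and did not pass with mix 2 (0.02, adjusted p = 0.819).

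Of 13 tested ADAM and ADAMTS proteases, 9 rose and 2 fell with mix 1, where 34.8% of all genes rose and 32.3% fell. With mix 2, 6 rose and 3 fell, where 36.7% of all genes rose and 31.9% fell. ADAM17, the shedding enzyme that TIMP3 inhibits, rose by 1.15 with mix 1 and fell by 0.98 with mix 2, with all 3 of its probe sets alike, and the mixes differed by -2.13 (adjusted p = 5.96e-12). ADAMTS12 was also higher with mix 1 (0.84) and lower with mix 2 (-1.10); it was chosen after its values were seen. ADAMTS1 fell by 1.60 with mix 1 and was at 0.12 with mix 2 (adjusted p = 0.0798). The latter passed with the mean of its probe sets (0.24, adjusted p = 0.0134), with the replicate block (0.12, 0.0404) and without mix 2 replicate B (0.15, 0.0475), and its other probe set rose by 0.35 (adjusted p = 0.0194). ADAMTS6 differed from control by -2.89 and -2.95, whereas ADAMTS9 rose by 2.22 and 2.15 and ADAM19 by 2.46 and 1.60.

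Among 9 tested genes of other pericellular enzymes and inhibitors, 7 rose and 1 fell with mix 1, and 9 rose with mix 2. Of all genes, 34.8% rose and 32.3% fell with mix 1, and 36.7% rose and 31.9% fell with mix 2. CTSB, the lysosomal and secreted protease cathepsin B, rose by 1.40 and 1.54 at its brightest probe set. CST3, the cathepsin inhibitor cystatin C, rose by 1.76 and 1.69; its other probe sets rose with mix 1 (3.20 and 2.59) but were at -0.08 and 0.12 with mix 2. CTSK, cathepsin K, rose by 1.42 with mix 1 and 0.57 with mix 2. HPSE, heparanase, fell by 0.29 with mix 1 and rose by 0.41 with mix 2, where its other probe set fell by 0.88.

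**Figure D4:**
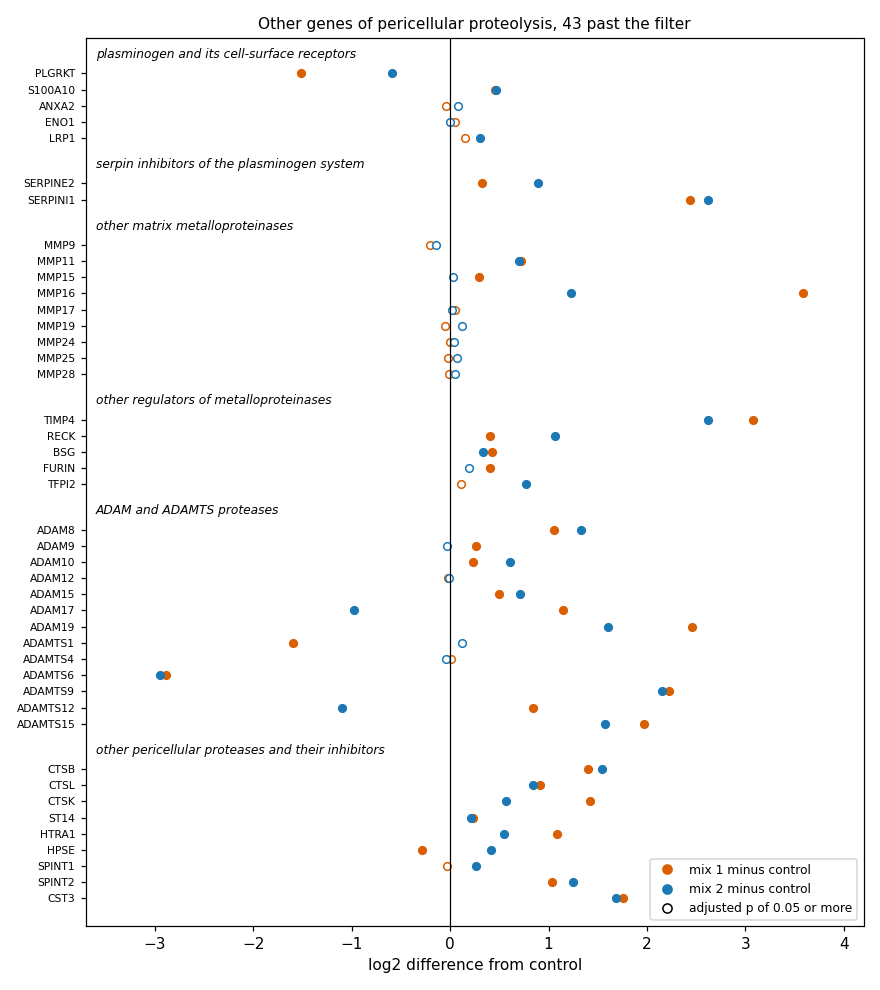
Log2 difference from control (x axis) of the 43 list genes past the filter, grouped by role, for mix 1 and mix 2; filled points passed the adjusted p threshold of 0.05 and open points did not. TIMP4, SERPINI1, ADAMTS9 and ADAM19 lie far right with both mixes, ADAMTS6 far left, and ADAM17 and ADAMTS12 on opposite sides of 0.

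Some markers of other cell types moved with the same groups. The summed level of 7 fibroblast markers was 8.09 to 8.43 log2 in control, 9.59 to 9.98 with mix 1 and 9.25 to 9.39 with mix 2; COL1A1 was its brightest, 2 of 7 passed the filter, and FAP (3.78 in control) and PDGFRA (4.41) were near background. COL1A1 rose by 2.30 and 1.48 and PDGFRB by 0.66 and 0.88 (adjusted p = 0.000173 and 1.05e-05), and LUM, below the filter, had means of 3.19, 4.26 and 5.41. That of 5 measured leukocyte markers was 7.64 to 7.81, 9.42 to 9.79 and 9.52 to 9.78, led by LYZ, with 4 past the filter and PTPRC (4.04) near background. LYZ rose by 4.19 and 4.22 and CD14 by 1.12 and 1.24, while CD3E (-0.10 and -0.11) and ITGAM (-0.02 and -0.19) did not pass. In control LYZ (4.96) and CD14 (5.15) lay below the filter value of 5.46, so they entered only through the high knockdown groups. The summed level of 5 endothelial markers was 7.63 to 7.92, 8.91 to 9.10 and 8.42 to 8.62, led by PECAM1, with 2 past the filter and CDH5 (3.97) near background. PECAM1 rose by 2.08 and 1.34, while VWF (-0.05 and 0.04) did not pass. Below the filter, KDR had means of 5.30, 4.56 and 5.30 and TEK of 4.76, 4.72 and 4.82, so the summed level followed PECAM1. That of 10 epithelial and luminal markers was 12.55 to 12.63, 13.44 to 13.58 and 13.16 to 13.36, led by KRT19, with 7 past the filter. Those 7 did not move alike. KRT19 rose by 1.35 and 0.84, CLDN4 by 1.08 and 0.74 and KRT8 by 0.50 and 0.40. EPCAM fell by 0.38 with mix 1 and rose by 0.93 with mix 2, and ERBB2 passed only with mix 2 (-0.01 and 0.20). ESR1 (-0.05 and -0.12) and CLDN3 (-0.01 and 0.07) did not pass. The part of these markers in the changes of TIMPs and metalloproteinases was not tested.

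The genes most like each of the 8 in pattern were found by the smallest root mean square difference over the 12 arrays, each value taken relative to its gene's control mean, among 13224 other genes. PLAU was closest to PRELID1 (0.102 log2) and POLE3 (0.112), whose means were also lower with mix 2 than with mix 1. PLAT was closest to SYTL2 (0.078) and TSPAN31 (0.096), and MMP1 to B4GAT1 (0.071) and TCEA3 (0.075), all higher with mix 2. MMP14 was closest to HLA-C (0.081) and CXXC5 (0.086), TIMP1 to RIPK4 (0.085) and ATF7IP2 (0.086), and TIMP2 to TOM1L2 (0.059) and PSPH (0.061). TIMP3 was closest to APCDD1L (0.091) and SAT1 (0.107). PLAUR, which moved little, was closest to CIB1 (0.049) and RALY (0.055). No gene of the 8 had another of them among its 2 closest.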

How the data were processed

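The authors deposited log2 expression values of 12 Affymetrix arrays (4 each for control siRNA, mix 1 and mix 2), and per the submitters' processing notes RMA made them (version and settings: not given in the sources used here). Quantile normalization, part of standard RMA, hides any shift common to most genes. Of 54675 probe sets, 41097 had exactly 1 gene symbol, 1801 several and 11777 none here; 62 were control probe sets, and the 41091 with 1 symbol that were not controls were used, with symbols updated through gene IDs.

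Genes were compared with limma 3.58.1 (R 4.3.3): 3 group means on 12 arrays, default eBayes, two-sided p-values adjusted by Benjamini-Hochberg over 13225 genes. The probe set fit ran over 41091 probe sets without a filter. Probe sets set against the mean of their gene's others were fitted over all genes with 2 or more, a step chosen after the data were seen. Scripts were tested on simulated data. An array has no read depth, so the number of arrays limits the precision. No 2 arrays held identical values. P-values measure the spread between 4 replicates of 1 line handled in parallel.

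The genes and lists were chosen with earlier results of these data known. By rule, the 9 genes, YAP1, WWTR1 and CCN2, the 2 closest patterns of each gene and the brightest marker of each list were named. Of each list role, up to 2 genes per direction that changed alike under both mixes and 1 per direction between the mixes were added. Further genes named in the text, among them ANXA2, ENO1, MMP9, BSG, FURIN, TFPI2, ADAMTS12, PDGFRB, LUM, CD14, CD3E and ITGAM, were not fixed by this rule.

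Same-letter arrays of mix 1 and control deviated together (correlations 0.37, 0.251, 0.409 and 0.34 for A to D). For A, C and D the same letter correlated best, but mix 1 replicate B correlated best with control replicate A. With mix 2 against control the same-letter correlations were 0.119, 0.034, 0.048 and 0.212. These values do not settle whether the letters pair the arrays. The alternatives were no filter, a filter at the 60th percentile, averaging each gene's probe sets, no shared probe sets (names ending in _s_at or _x_at), centred arrays, only the 2 groups compared, eBayes with trend and robust, a replicate block, and each array left out.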

Additional observations from a re-analysis of the deposited data

Results flagged for a closer look

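On 3 of 66 groups of 4 arrays, 1 array stood apart from the other 3 by Dixon's criterion at the 95% level, about as many as the 1 in 20 that chance gives. PLAU at 205479_s_at read 11.1 log2 with mix 1 replicate C, with the next array at 10.89. MMP14 at 202827_s_at read 9.98 with mix 2 replicate D, with the next at 10.19. TIMP1 read 11.09 in control replicate B, with the other controls at 10.88.

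The mixes differed for all 8 tested genes at their brightest probe sets (limma, adjusted over all genes). Of all genes, 28.7% were higher and 25% lower with mix 2. TIMP2 did not pass under the alternatives given with its values above, and PLAUR did not pass without shared probe sets. Mix 2 minus mix 1 was -0.79 log2 for PLAU, 0.35 for PLAT, -0.38 for PLAUR and 0.42 for MMP1. It was -0.34 for MMP14, -0.26 for TIMP1, -0.21 for TIMP2 and -0.33 for TIMP3.

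Among the named genes of the wider list, mix 2 was higher for PLGRKT (0.93), SERPINE2 (0.57), RECK (0.67), ADAMTS1 (1.72), HPSE (0.7) and SERPINI1 (0.18). It was lower for MMP16 (-2.36), ADAM17 (-2.13), ADAM19 (-0.86), CTSK (-0.85) and TIMP4 (-0.46). The SERPINI1 difference did not pass without a filter (adjusted p = 0.0653), without mix 1 replicate B (0.0798) or C (0.0808), or without mix 2 replicate A (0.0725), B (0.0856) or C (0.0675).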

How the results depend on the processing

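The counts of all genes, of the 8 genes, of the list and of the probe sets stayed within 1.5 times of the values given under each alternative, with 1 exception. Without shared probe sets, 5 of the 9 genes had a value, and 4, 4 and 3 of them passed in mix 1 against control, mix 2 against control and mix 2 against mix 1; PLAU, PLAT and TIMP3 have no other probe sets, so fewer genes were tested. With 1 array left out, 8 to 8, 7 to 7 and 7 to 8 of the 8 genes passed, and 28 to 30, 27 to 29 and 19 to 23 of the 43 list genes. With the replicate block, 8, 7 and 8 of the 8 genes and 31, 30 and 22 list genes passed. The block changed no call of the 8 genes; it brought ADAMTS1 with mix 2 (0.12, adjusted p = 0.0404) and, between the mixes, TIMP2 231579_s_at in the fit of probe sets (-0.21, 0.0295) past the threshold. Signs turned with the mean of probe sets for RECK with mix 1 (-0.716), HPSE with mix 2 (-0.238) and, between the mixes, MMP11 (0.026) and S100A10 (-0.268). Without shared probe sets they turned for HPSE (-0.885 with mix 2, -0.328 between the mixes), PLAUR with mix 2 (0.055) and MMP11 between the mixes (0.072). With 1 array left out they turned only for differences near 0: MMP11 (-0.072 to 0.035) and S100A10 (-0.004 to 0.026) between the mixes, MMP2 1566678_at (-0.055 to 0.045) and 201069_at (-0.078 to 0.112) with mix 2, and 1566677_at (-0.071 to 0.093) between the mixes. Different probe sets read different stretches of a transcript; the cause was not tested. Signal near background limits MMP2.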
